A study of Rattus norvegicus with 44 samples.

Results

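The comparison set liver arrays of rats given crude 4-methylcyclohexanemethanol (MCHM) at 300 or 500 mg/kg against liver arrays of rats given the same mixture at 0.1, 1 or 10 mg/kg. By their titles, 8 arrays belong to the high doses (4 at each) and 11 to the low doses (3 at 0.1 mg/kg, 4 at 1 mg/kg and 4 at 10 mg/kg), together 19 of the 44 arrays of the series and 19 of its 27 liver arrays. Crude MCHM is an industrial mixture, mainly an alcohol with a cyclohexane ring, used in washing coal. Male Harlan Sprague Dawley rats were 6 to 8 weeks old at assignment, were dosed by gavage in corn oil at 5 mL/kg on 5 days in a row, and gave tissue on the day after the last dose. All 19 arrays therefore come from dosed animals of 1 sex and strain in 1 vehicle, and the 4 vehicle arrays and the 4 arrays at 100 mg/kg are outside the comparison. Their levels are given below as background only.

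The liver makes fatty acids from citrate that leaves the mitochondria. ATP citrate lyase splits it, acetyl-CoA carboxylase and fatty acid synthase build the chain, and an elongase and a desaturase finish it, under transcription factors that respond to insulin and to sugars. The liver also clears foreign compounds with cytochrome P450 enzymes and glutathione transferases, whose genes respond to the nuclear receptors CAR and PXR and to the stress factor NRF2. It secretes most plasma proteins, among them carriers of thyroid hormone and of corticosteroids.

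Levels are log2 values of an array with probe sets near the 3' end of transcripts, so a difference of 1 is a doubling. Pairs of the 19 arrays correlated at r = 0.990 to 0.994 across probe sets, which are not independent replicates, and the number of arrays limits the precision. The 3' minus 5' difference of the GAPDH probe sets ran from 0.04 to 0.17 in the high and from 0.05 to 0.17 in the low arrays. Of 9 hepatocyte markers, 7 were higher in every one of the 27 liver arrays than in all kidney arrays and 1 was lower. All 7 of 7 kidney tubule markers were lower in liver. *Xist*, a mark of female cells, read 2.79 to 3.16 in the 19 arrays, against 8.25 in 1 vehicle array that the comparison does not use. *Eif2s3y*, a mark of male cells, read 8.94 to 9.49 in the 19 arrays and 9.07 to 9.36 in the 4 vehicle arrays. The vehicle ranges given below include the array with high *Xist*. The labels call the arrays of a dose biological replicates, and p-values measure the spread between these arrays only. In whole tissue, fewer cells of a type and less RNA per cell cannot be told apart.

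Genes of fatty acid synthesis led the transcripts that were higher at the high doses, with the detoxifying transferase *Gsta3*, while *Nim1k*, a kinase of the AMPK-related family, and *Nox4*, an oxidase that makes hydrogen peroxide, led those that were lower. Of 14217 genes, each standing for its brightest probe set, 89 passed an adjusted p of 0.05 (0.626%) in limma's test, 58 of them higher (0.408%) and 31 lower (0.218%). The changes were mostly small. The median was 0.39 among the genes that rose, with a range of 0.19 to 1.58, and -0.38 among those that fell, with a range of -1.35 to -0.23. Over all genes the median difference was 0.01, with 52.5% above and 47.5% below 0. Counted as probe sets, 137 of 31042 passed (0.441%), 73 higher and 64 lower, against 3617 at an unadjusted p under 0.05.

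**Figure D1:**
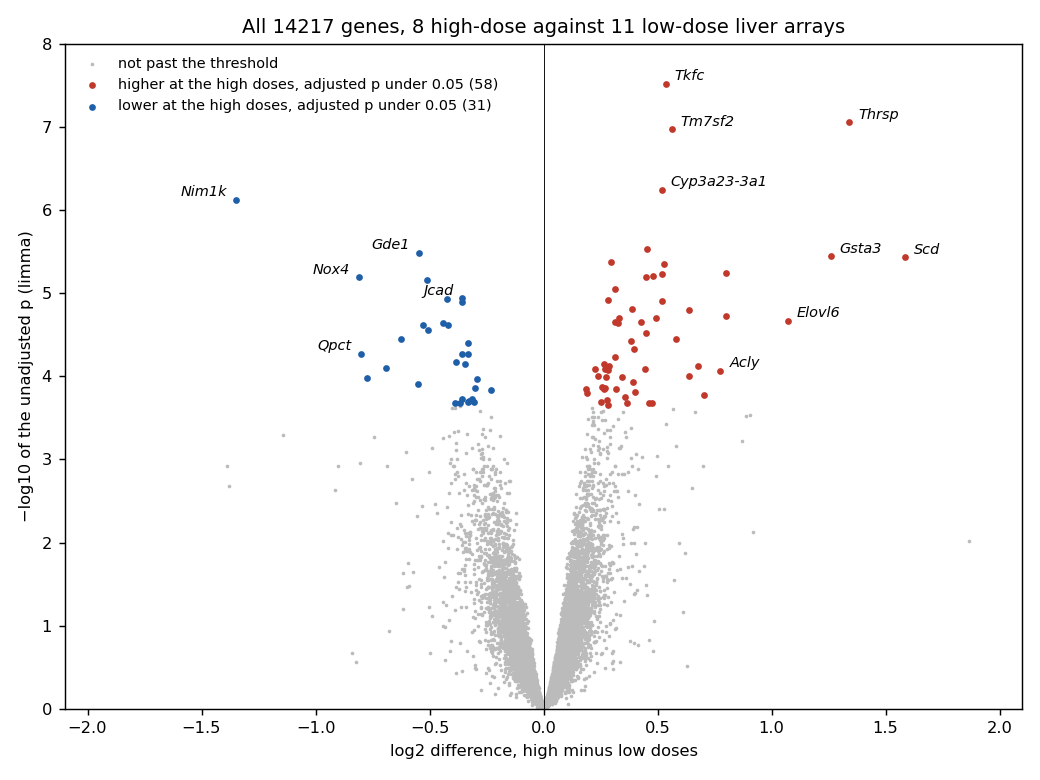
Log2 difference between the 8 high-dose and the 11 low-dose liver arrays (horizontal axis) against the minus log10 of limma's unadjusted p (vertical axis), 1 point for each of 14217 genes. The 58 red genes rose and the 31 blue genes fell past the adjusted threshold, with *Scd* (1.58) and *Nim1k* (-1.35) farthest from 0 among them.

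The count of 137 probe sets rests on the whole set of arrays. It was 55 without 500 mg/kg replicate 4, 73 without 300 mg/kg replicate 4, 80 without 1 mg/kg replicate 1, 82 without 300 mg/kg replicate 1 and 83 without 10 mg/kg replicate 1. It was 84 without 10 mg/kg replicate 2, 85 without 1 mg/kg replicate 2 or 500 mg/kg replicate 1, 89 without 1 mg/kg replicate 3 and 91 without 500 mg/kg replicate 3.

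Fatty acid synthesis held the most called members of any list. Of its 26 measured members 9 rose and 0 fell, 24 lay above 0, and the median difference was 0.21, against 0.01 over all genes. Among all genes 0.408% were called higher and 52.5% lay above 0. Thyroid hormone responsive protein, *Thrsp*, a nuclear protein of lipogenic tissues, read 11.37, 11.66 and 12.27 (lowest, median and highest) in the high arrays and 9.64, 10.28 and 11.33 in the low arrays. Every high array was above every low array, a separation seen in 24 of all genes (0.169%), 17 of them higher (0.12%) and 7 lower (0.0492%). The difference was 1.34 (SE 0.17, adjusted p = 9.74e-04), or 2.53-fold, and further probe sets of the gene gave 1.35 and 1.23. The vehicle arrays read 10.10 to 11.3334, the highest of them level with the highest low array (11.3326).

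*Scd*, the desaturase that makes oleate from stearate, had the largest called difference. It read 11.17, 11.86 and 12.40 in the high arrays and 9.04, 10.43 and 11.56 in the low arrays, so that 5 of 8 high arrays were above all low ones. The difference was 1.58 (SE 0.26, adjusted p = 0.0095), or 3.00-fold. The 4 vehicle arrays read 10.38 to 12.61 with a mean of 11.39, a range that overlaps both pools.

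*Elovl6*, which elongates palmitate, read 7.79, 8.26 and 9.43 at the high doses and 6.56, 7.36 and 7.99 at the low doses. Of the 8 high arrays 6 lay above all low arrays, and the difference was 1.07 (SE 0.20, adjusted p = 0.0158). *Acaca*, the acetyl-CoA carboxylase that commits carbon to the chain, read 9.13, 9.51 and 9.88 against 9.04 at the low-dose median, with low arrays from 8.83 to 9.32. The difference was 0.50 (SE 0.09, adjusted p = 0.0158), and 7 of 8 high arrays were above all low ones. The calls of *Thrsp*, *Scd*, *Elovl6* and *Acaca* held in all 19 fits that leave out 1 array. With a whole dose left out of a pool, that of *Thrsp* held throughout (adjusted p up to 0.0204) and that of *Scd* was lost with 500 mg/kg as the only high dose (0.138). That of *Elovl6* was lost with either high dose alone and without 0.1 or 1 mg/kg (up to 0.107), and that of *Acaca* with 500 mg/kg alone and without any 1 of the low doses (up to 0.186).

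The other called enzymes of the pathway were closer to the threshold. *Acly*, the citrate lyase, read 10.72, 11.33 and 12.19 against 10.24, 10.59 and 11.29, a difference of 0.78 (SE 0.16, adjusted p = 0.0327). *Fasn*, the fatty acid synthase, read 9.30, 10.17 and 10.84 against 8.89, 9.36 and 10.05, a difference of 0.70 (SE 0.16, adjusted p = 0.0481). Both ranges overlap, with 5 and 6 of the 8 high arrays above all low arrays. The dimmer probe set of *Elovl6* gave 1.31 (adjusted p = 0.0776) and that of *Acaca* 0.17 (adjusted p = 0.382). A second *Fasn* probe set gave 0.74 with an adjusted p of 0.0519. *Me1*, malic enzyme, which supplies NADPH, rose by 0.46 (adjusted p = 0.0491), and its second probe set by 0.64 (adjusted p = 0.0262). *Pklr*, the liver pyruvate kinase, rose by 0.44 (adjusted p = 0.0319), and its dimmer probe set by 0.74 (adjusted p = 0.0020). *Srebf1*, which encodes the transcription factor SREBP-1 and stands outside the naming rule, rose by 0.64 (SE 0.13, adjusted p = 0.0364). With 1 array left out, the call held in 10 of 19 fits for *Acly*, 3 for *Fasn*, 4 for *Me1*, 9 for *Pklr* and 6 for *Srebf1*, with adjusted p up to 0.0847, 0.105, 0.113 and 0.0758 for the first 4 of these genes.

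Members of the list that did not pass included *Pnpla3*, a lipid droplet acyltransferase and lipase, at 0.92 (adjusted p = 0.223), and *Gpam*, which starts glycerolipid synthesis, at 0.31 (adjusted p = 0.40). *Mlxipl*, which encodes the sugar-responsive factor ChREBP, was at 0.07, and the desaturases *Fads1* and *Fads2* were at 0.09 and 0.18. The 9 called genes thus include the enzymes from citrate to monounsaturated fatty acid, while the list's 17 other members stayed between -0.04 and 0.92 without passing.

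**Figure D2:**
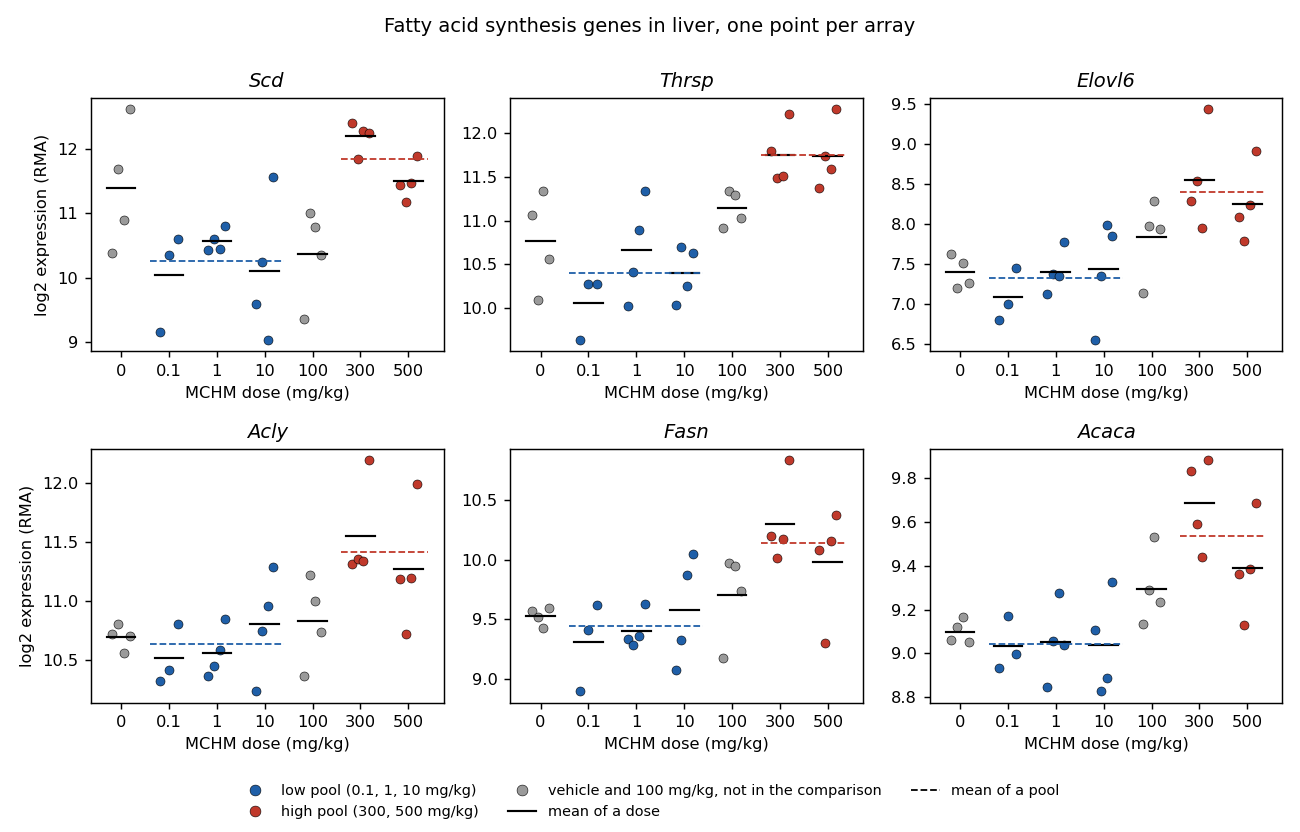
Log2 expression of 6 fatty acid synthesis genes in each liver array by dose of MCHM, with a black line at each dose's mean and dashed lines at the means of the low (blue) and high (red) pools. *Thrsp* separates the pools completely, and *Scd* in the grey vehicle arrays reaches 12.61, as high as in the red arrays.

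Of the 9 called genes of this list, 6 have an entry in the promoter table used here, and 4 of these promoters are printed because the genes rose together. Those of *Me1* and *Pklr* are not printed and hold 0 CCAAT boxes. Each runs from 250 bases before to 50 after the start of the gene, on the gene's own strand (minus for all 4), from RefSeq's assembly GRCr8, with the CCAAT box or its reverse complement ATTGG in capitals. The regions are chr1:161138915-161139214 for *Thrsp*, chr10:85963582-85963881 for *Acly*, chr10:45518961-45519260 for 1 of the starts of *Srebf1*, and chr1:253231682-253231981 for *Scd*.
Thrsp: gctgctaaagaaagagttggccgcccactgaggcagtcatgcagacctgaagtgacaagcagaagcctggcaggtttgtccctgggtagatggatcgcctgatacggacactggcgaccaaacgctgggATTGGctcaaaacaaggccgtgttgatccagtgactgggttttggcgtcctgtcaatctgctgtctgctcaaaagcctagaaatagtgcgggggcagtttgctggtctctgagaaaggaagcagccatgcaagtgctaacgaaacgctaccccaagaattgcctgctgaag
Acly: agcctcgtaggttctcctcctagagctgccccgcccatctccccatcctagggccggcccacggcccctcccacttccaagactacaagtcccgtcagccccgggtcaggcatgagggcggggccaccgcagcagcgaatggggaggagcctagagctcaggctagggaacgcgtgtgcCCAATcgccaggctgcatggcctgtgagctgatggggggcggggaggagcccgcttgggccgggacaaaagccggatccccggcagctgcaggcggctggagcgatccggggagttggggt
Srebf1: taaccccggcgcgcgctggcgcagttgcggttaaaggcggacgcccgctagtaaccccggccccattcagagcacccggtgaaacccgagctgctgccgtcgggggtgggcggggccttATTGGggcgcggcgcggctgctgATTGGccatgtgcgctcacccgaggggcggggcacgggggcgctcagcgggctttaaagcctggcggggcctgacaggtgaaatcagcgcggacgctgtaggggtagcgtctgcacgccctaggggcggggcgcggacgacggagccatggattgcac
Scd: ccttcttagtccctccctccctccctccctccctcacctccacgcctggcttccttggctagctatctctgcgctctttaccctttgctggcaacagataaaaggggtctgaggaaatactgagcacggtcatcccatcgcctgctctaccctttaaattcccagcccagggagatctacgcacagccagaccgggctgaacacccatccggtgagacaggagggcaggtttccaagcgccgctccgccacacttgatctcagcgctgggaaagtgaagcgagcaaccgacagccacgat
The letters CCAAT, which the factor NF-Y binds, occur once in the *Thrsp* window, once in that of *Acly* and at 2 places in that of *Srebf1*, on either strand. The *Scd* window holds none, so 3 of the 6 genes have the letters in a printed window. Over all 7 promoters of the 6 genes, the second start of *Srebf1* included, 4 hold them. On either strand, CCAAT occurred in 12549 of 33469 rat promoters of this length (37.5%), in 24 of 52 promoters of called genes that rose (46.2%) and in 15 of 32 of called genes that fell (46.9%). A sterol regulatory element written as TCACNCCAC was found in 1.12% of all promoters and in 0 of the 52, which says only that these letters are not in these windows. The E-box CACGTG was found in 6.42% of all promoters and 7.69% of the 52, and the core of the antioxidant response element, TGACNNNGC, in 12.1% of all, 23.1% of the 52 and 25.0% of the 32. No motif contains another, and a match is a description, not a site.

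*Tkfc*, of fructose use, and *Tm7sf2*, of sterol synthesis, also separated the pools completely. *Tkfc*, triokinase, which phosphorylates the glyceraldehyde from fructose, read 9.51, 9.68 and 9.93 in the high arrays and 8.87, 9.21 and 9.31 in the low arrays. No array overlapped, and the difference of 0.54 (SE 0.06, adjusted p = 9.32e-04) had the smallest p of all genes. A dim second *Tkfc* probe set gave 0.25 (adjusted p = 0.291). *Tm7sf2*, a sterol reductase of the cholesterol pathway, read 10.84, 11.05 and 11.20 against 10.20, 10.55 and 10.78, again with no overlap, a difference of 0.56 (SE 0.07, adjusted p = 9.74e-04). Both calls held in all 19 fits without 1 array. *Slc2a5*, the fructose transporter GLUT5, rose by 0.52 (adjusted p = 0.0099), and *Gpd1*, which makes glycerol 3-phosphate, by 0.33 (adjusted p = 0.0158). These 2 were chosen after their values were seen. In the list of glucose metabolism 1 of 19 members rose (*Pklr*, counted above) and 0 fell, with a median of 0.04. The shares over all genes were 0.408% called higher and 0.218% called lower.

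Of 22 measured genes in the cholesterol list 3 rose (*Scd*, which stands in both lists, *Tm7sf2* and *Tmem97*) and 0 fell, and the median was 0.14. Among all genes 0.408% were called higher. *Tmem97*, a sterol-regulated membrane protein, rose by 0.27 (adjusted p = 0.0365), a call held in 6 of 19 fits without 1 array, and its second probe set gave 0.27 (adjusted p = 0.0776). *Dhcr7*, which makes the last step to cholesterol, was at 0.38 (adjusted p = 0.070). The enzymes *Sqle* (0.01), *Idi1* (-0.02) and *Fdft1* (0.06) and the regulator *Srebf2* (-0.03) were near 0. Of the 22 genes in the list 17 lay above 0, against 52.5% of all genes.

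Genes for clearing foreign compounds followed with 1 large and several small differences. *Gsta3*, a glutathione transferase, read 8.18, 8.46 and 9.03 in the high arrays and 6.31, 7.20 and 8.17 in the low arrays. The pools just failed to overlap, at 8.179 against 8.174, and the difference was 1.26 (SE 0.21, adjusted p = 0.0095), or 2.39-fold. The vehicle arrays read 6.96 to 8.06. Of 29 NRF2 targets 3 rose (*Gsta3*, *Me1* and *Pir*), 0 fell and 25 lay above 0, with a median of 0.13. Among all genes 0.408% were called higher and 52.5% lay above 0. *Pir*, pirin, rose by 0.36 (adjusted p = 0.0483, held in 3 of 19 fits without 1 array). The standard NRF2 targets *Nqo1*, a quinone reductase, and *Hmox1*, heme oxygenase, were at 0.09 (adjusted p = 0.844) and 0.01 (adjusted p = 0.985).

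*Cyp3a23-3a1*, the PXR-inducible P450, read 12.76, 13.03 and 13.28 in the high arrays and 12.36, 12.48 and 12.85 in the low arrays, with 6 of 8 high arrays above all low ones. The difference was 0.52 (SE 0.08, adjusted p = 0.0025), or 1.43-fold. *Cyp3a18*, of the same subfamily, rose by 0.40 (adjusted p = 0.0241), a call lost without 500 mg/kg replicate 1 or replicate 4 (adjusted p up to 0.0671). *Cyp3a9* was at 0.57 with a wider spread (SE 0.24, adjusted p = 0.351), and *Cyp3a2* at 0.06. *Cyp2c22*, counted among male-biased liver genes, separated the pools, with 13.08 to 13.57 in the high and 12.49 to 13.01 in the low arrays (difference 0.45, SE 0.08, adjusted p = 0.0099). Members of 1 subfamily can share probe sequences, so the P450 and glutathione transferase values may mix close relatives. Of 20 CAR and PXR targets 2 rose and 0 fell, with a median of 0.07, against 0.408% of all genes called higher. *Cyp1a1*, the main target of the aryl hydrocarbon receptor, was at 0.21 (adjusted p = 0.515), and *Cyp7a1*, which sets the rate of bile acid synthesis, at 0.61 (adjusted p = 0.476).

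Further genes rose in other roles. *Wfdc21*, a small secreted protein, rose by 0.80 (SE 0.14, adjusted p = 0.0099), with 7 of 8 high arrays above all low ones. *Acsm2*, an acyl-CoA synthetase for medium chains, rose by 0.80 (SE 0.15, adjusted p = 0.0158). *Smim1*, a small membrane protein, rose by 0.45 (adjusted p = 0.0095). *Orm1*, the acute phase protein orosomucoid, read 12.49, 12.85 and 13.13 against 12.01, 12.25 and 12.71, a difference of 0.52 (SE 0.09, adjusted p = 0.0128). It was the only called member of 25 acute phase genes, 20 of which lay below 0 (median -0.05). Over all genes 0.408% were called higher, 0.218% were called lower and 47.5% lay below 0. *A2m*, alpha-2-macroglobulin, was at -0.65 (adjusted p = 0.163), with -0.24 at 300 mg/kg and -1.05 at 500 mg/kg alone, the latter past the threshold (adjusted p = 0.0227). *Mt2A*, a metallothionein, was at -1.39 (adjusted p = 0.110).

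*Vars1*, the valyl-tRNA synthetase, rose by 0.28 (adjusted p = 0.0491), and *Atp5f1c*, a subunit of ATP synthase, by 0.19 (SE 0.04, adjusted p = 0.0437). The latter read 12.34 to 12.51 in the high and 12.19 to 12.28 in the low arrays with no overlap. Each call held in 1 of 19 fits without 1 array, with adjusted p up to 0.100 and 0.101. A dim second *Vars1* probe set gave 0.05 (adjusted p = 0.895). *Vars1* was the only called member of 19 cytosolic aminoacyl-tRNA synthetases (17 above 0, median 0.16), and *Atp5f1c* of 33 oxidative phosphorylation subunits (30 above 0, median 0.08). Over all genes 0.408% were called higher and 52.5% lay above 0. With 300 and 500 mg/kg apart, the synthetase median was 0.27 and 0.05, and that of oxidative phosphorylation 0.04 and 0.11.

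The genes that fell had varied roles. *Nim1k* read 4.68, 5.77 and 6.72 in the high arrays and 6.39, 7.13 and 7.59 in the low arrays. Of the 8 high arrays 7 were below all low arrays, and the difference was -1.35 (SE 0.20, adjusted p = 0.0029), or 2.55-fold lower. *Nox4* read 5.69, 6.13 and 6.60 against 6.39, 6.96 and 7.40, with 5 of 8 high arrays below all low ones (difference -0.81, SE 0.14, adjusted p = 0.0099). *Gde1*, which cleaves glycerophosphodiesters, read 8.78, 9.12 and 9.493 in the high and 9.497, 9.70 and 9.79 in the low arrays (difference -0.55, SE 0.09, adjusted p = 0.0095). *Jcad*, a protein of endothelial junctions, read 8.61 to 8.88 against 8.90 to 9.34 (difference -0.36, SE 0.06, adjusted p = 0.0128). *Gde1* and *Jcad* had no overlap between the pools. The vehicle arrays, however, ran from 9.003 to 9.57 for *Gde1* and from 8.69 to 9.06 for *Jcad*, and so reached into each high-dose range. The call of *Gde1* was lost without 1 or 10 mg/kg (adjusted p up to 0.0858). That of *Jcad* was lost with either high dose alone and without 1 or 10 mg/kg (up to 0.14). A dim second *Jcad* probe set gave 0.06 (adjusted p = 0.795).

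*Serpina7*, thyroxine-binding globulin, read 8.19, 8.99 and 9.69 in the high arrays and 9.25, 9.86 and 10.42 in the low arrays, with 5 of 8 high arrays below all low ones. The difference was -0.78 (SE 0.17, adjusted p = 0.0372), a call held in 6 of 19 fits without 1 array. Among 16 genes of thyroid hormone carriage and response 2 rose (*Thrsp* and *Me1*, also counted above) and only *Serpina7* fell, with a median of -0.01. The shares over all genes were 0.408% called higher and 0.218% called lower. *Klf9*, a hormone-responsive transcription factor, was at -0.58 (adjusted p = 0.123) and the deiodinase *Dio1* at -0.08. *Serpina6*, which encodes the corticosteroid carrier of plasma, fell by 0.33 (adjusted p = 0.0213), and its pools met at 12.19 without overlapping. It was picked once its values were known.

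*Qpct*, glutaminyl cyclase, fell by 0.80 (adjusted p = 0.0262), *Pdzph1* by 0.62 (adjusted p = 0.0201) and *Popdc2*, a membrane protein that binds cAMP, by 0.51 (adjusted p = 0.0099). *Rab30*, a GTPase of the Golgi, fell by 0.69 (adjusted p = 0.0319) and its second probe set by 0.76. *Fabp7*, a fatty acid binding protein, fell by 0.36 (adjusted p = 0.0262). The call of *Popdc2* held in all 19 fits without 1 array and that of *Rab30* in 11. With 300 mg/kg alone or without 10 mg/kg the call of *Popdc2* was lost (adjusted p up to 0.242). That of *Qpct* was lost without 300 mg/kg replicate 4 and without 500 mg/kg replicates 3 and 4, that of *Pdzph1* without replicate 4 of either dose, and that of *Fabp7* without 500 mg/kg replicates 1, 3 and 4, with adjusted p up to 0.0685. Dim second probe sets of *Popdc2* (-0.15) and of *Jchain* (-0.08) did not pass. *Hgf*, hepatocyte growth factor, fell by 0.51 (adjusted p = 0.0172), and the imprinted RNA *H19* by 0.53 (adjusted p = 0.0158). Those 2 were chosen after their values were seen.

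**Figure D3:**
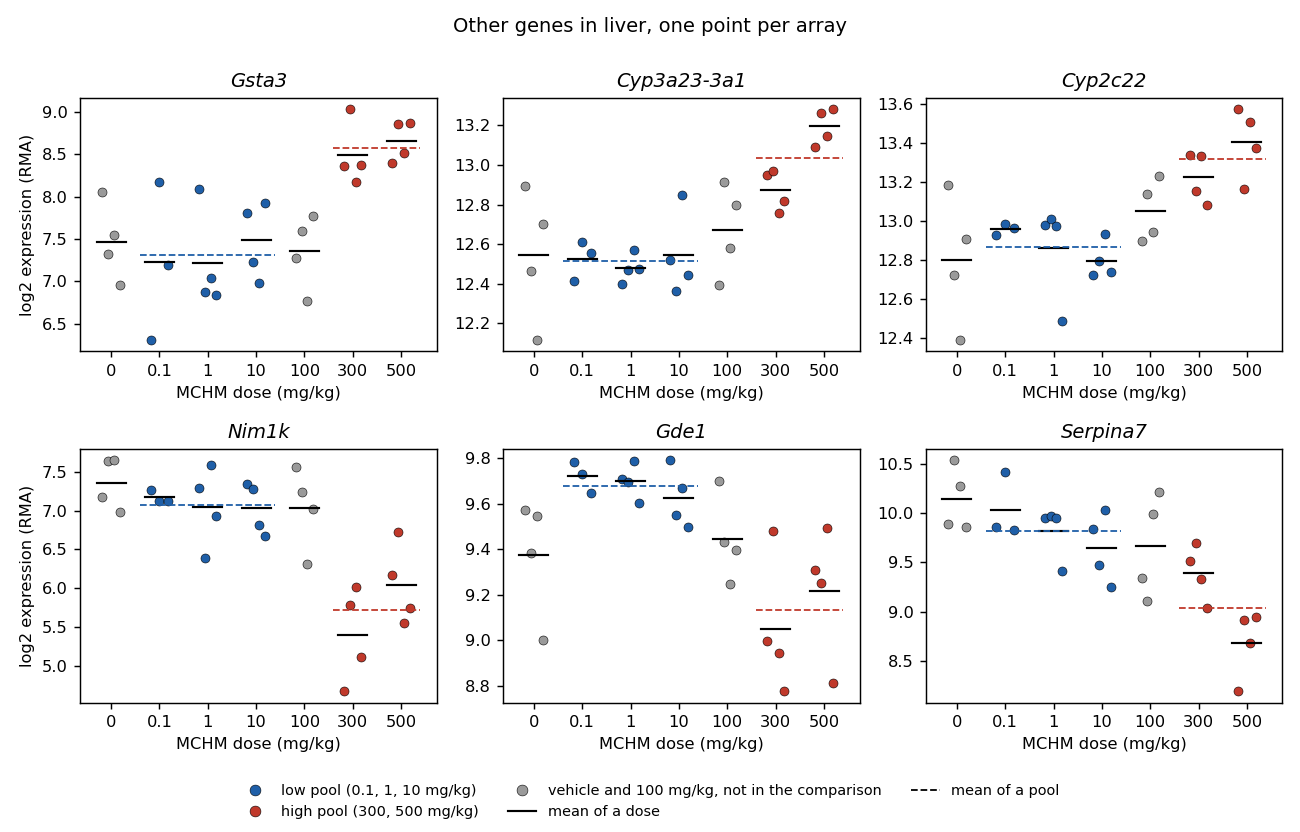
Log2 expression of 3 genes that rose (top) and 3 that fell (bottom) in each liver array by dose of MCHM, with a black line at each dose's mean and dashed lines at the means of the low (blue) and high (red) pools. *Gsta3* and *Cyp2c22* are higher in all 8 red arrays than in all 11 blue ones, *Gde1* is lower, and *Serpina7* is lowest at 500 mg/kg.

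Markers of lymphocytes, macrophages, endothelium and connective tissue cells lay mostly below 0, while those of several other cell types did not. Above 0 lay 3 of 5 neutrophil markers (median 0.08) and 5 of 6 cholangiocyte markers (0.07). So did 4 of 5 erythroid (0.06) and 4 of 7 adipocyte markers (0.08). *Jchain*, the joining chain of secreted antibodies, fell by 0.55 (adjusted p = 0.0412, held in 7 of 19 fits without 1 array), and *Ccl5*, a chemokine of T cells, by 0.42 (adjusted p = 0.0128, held in all 19). The call of *Ccl5* was lost with either high dose alone and without 1 or 10 mg/kg (adjusted p up to 0.146). *Jchain* and *Ccl5* were the 2 called members of 16 lymphocyte and plasma cell markers, 13 of which lay below 0. Among all genes 0.218% were called lower and 47.5% lay below 0. The mean level of the lymphocyte and plasma cell list was 4.93 to 5.18 in the high and 4.99 to 5.30 in the low arrays. All 8 macrophage markers (median -0.13) and all 7 endothelial markers (median -0.10) lay below 0, as did 11 of 12 stellate cell and fibroblast markers (median -0.16). In limma's test 0 of these 27 passed, against 7 at an unadjusted p under 0.05, which 13.6% of all genes reached (7.32% higher and 6.32% lower). Their mean levels were 8.48 to 8.99, 7.64 to 7.96 and 6.79 to 7.10 in the high arrays, against 8.59 to 8.97, 7.70 to 7.94 and 6.90 to 7.32 in the low arrays. With 300 and 500 mg/kg apart, the macrophage median was -0.09 and -0.19 and the endothelial median -0.03 and -0.18. That of stellate cells and fibroblasts was -0.19 and -0.15. In kidney the macrophage, endothelial and stellate cell medians of high minus low were -0.26, -0.16 and -0.11, against -0.03 over all genes. The median of 9 hepatocyte markers in liver was -0.00. The part of these cells in the fall of *Nox4*, *Jcad*, *Jchain*, *Ccl5* and *Hgf* was not tested.

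Members of some groups lay almost entirely on 1 side of 0, by small amounts and without called members. All 33 proteasome subunits lay above 0 (median 0.10, range 0.04 to 0.29), with 15 at an unadjusted p under 0.05 and 0 past limma's adjusted threshold. Of 38 cytosolic ribosomal proteins 36 lay below 0 (median -0.07), 5 of them at an unadjusted p under 0.05 and 0 past the adjusted one. Of 33 complement and coagulation genes 29 lay below 0 (median -0.08), with 12 and 0. The ribosomal count is near the 13.6% of all genes, and over all genes 52.5% lay above and 47.5% below 0. With 300 and 500 mg/kg apart, the ribosomal median was -0.02 and -0.13, so the pooled value came mainly from 500 mg/kg. The proteasome median was 0.08 and 0.13, and that of complement and coagulation -0.06 and -0.09. Whether these medians differ between the doses was not tested. Members of such a group are not independent of each other, so these counts are a description.

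Of 40 PPARA targets, genes of fat oxidation, 0 passed limma's adjusted threshold and 17 an unadjusted p under 0.05 (6 higher, 11 lower), with a median of -0.01, against 13.6% of all genes at that unadjusted p. *Cyp4a1*, the fatty acid omega-hydroxylase, was at 0.28 (adjusted p = 0.361), with -0.012 at 300 mg/kg and 0.57 at 500 mg/kg alone, the latter past the threshold (adjusted p = 0.0249). Less bright probe sets of *Cpt1a*, which admits fatty acids to mitochondria, and of *Acaa2*, a thiolase of mitochondrial beta-oxidation, fell by 0.44 each (adjusted p = 0.0491 and 0.0128), while the brightest *Cpt1a* probe set was at -0.30 (adjusted p = 0.20). The ATF4 list of the amino acid response had 0 of 31 past the adjusted and 6 past the unadjusted threshold in limma's test (median 0.06). Its targets *Asns*, asparagine synthetase, and *Slc3a2*, an amino acid transporter chain, were at 0.30 (adjusted p = 0.734) and 0.16 (adjusted p = 0.648). In limma's test 0 members passed among bile acid genes, urea cycle and amino acid enzymes, alcohol and aldehyde oxidising enzymes, transferases of glucuronate and sulfate, AhR targets, the unfolded protein response, heat shock, p53 targets, cell cycle and clock genes. Their medians ran from -0.06 to 0.06. At an unadjusted p under 0.05 the bile acid list had 3 of 22 members and the urea cycle and amino acid list 9 of 35. The alcohol and aldehyde list had 4 of 18, the transferases of glucuronate and sulfate 5 of 18, and AhR targets 0 of 7. The unfolded protein response had 2 of 25, heat shock 3 of 16 and p53 targets 3 of 15. Cell cycle had 1 of 36 and the clock 1 of 17, beside the 13.6% of all genes.

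**Figure D4:**
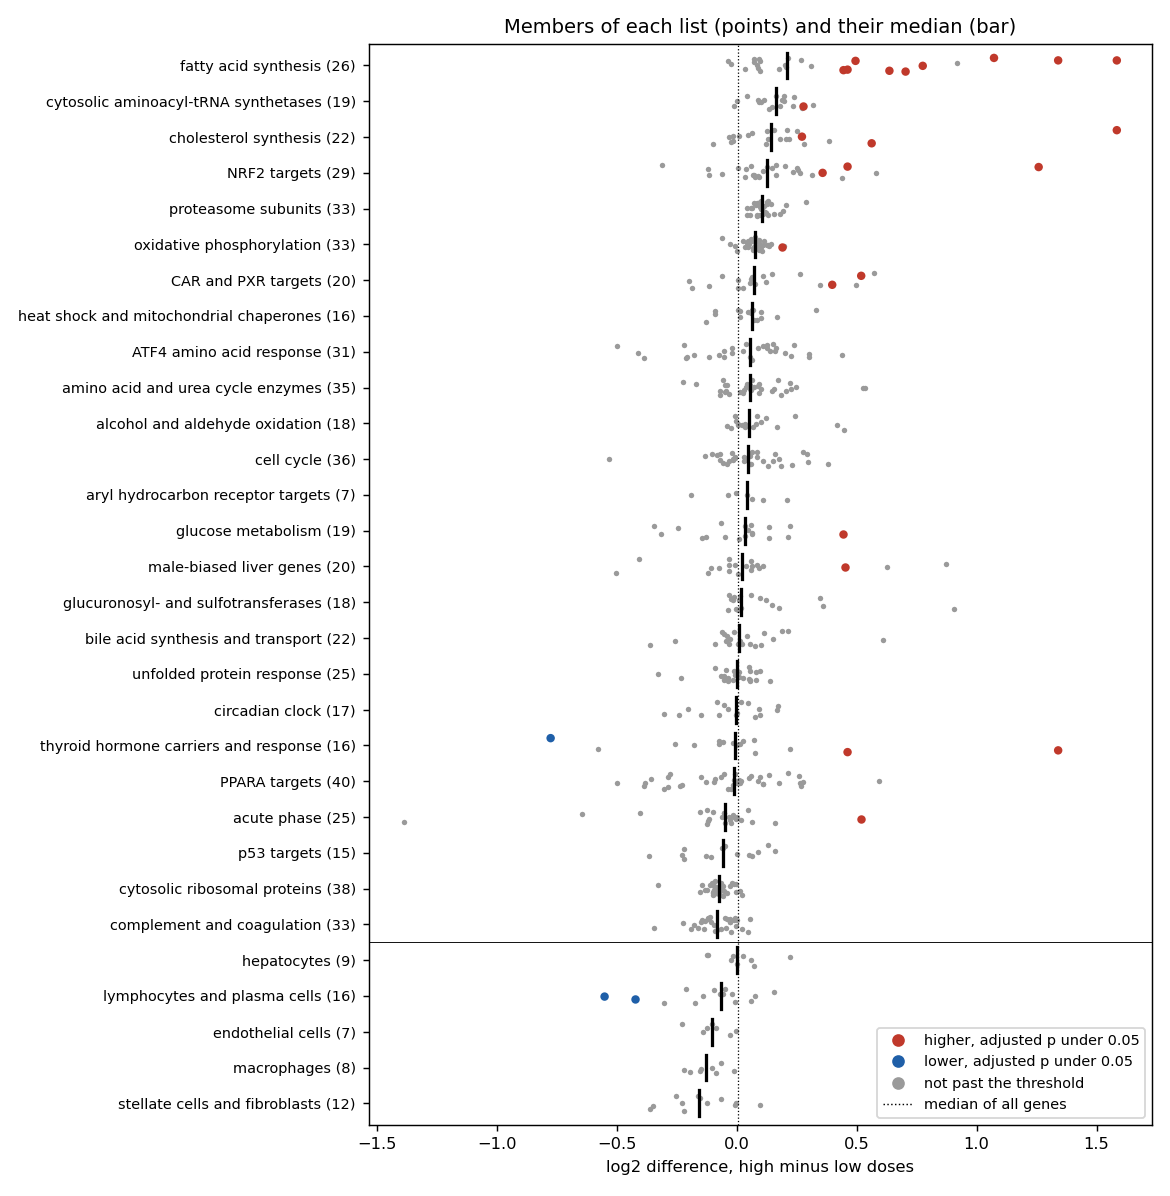
Log2 difference between high and low doses for each measured member (points) of 25 pathway lists and, below the line, 5 lists of cell type markers, with the list's median as a black bar and the median of all genes (0.01) dotted. Members past the adjusted threshold are red (higher) or blue (lower), and fatty acid synthesis holds 9 red points.

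The 2 high doses were also fitted apart against the same 11 low arrays, so the 2 sets of differences share those arrays. At 300 mg/kg 22 genes passed (0.155%) and at 500 mg/kg 110 (0.774%). As probe sets they were 37 and 149, and the first was 4 without 300 mg/kg replicate 4, 8 without replicate 1 and 10 without replicate 3, while the second was 34 without 500 mg/kg replicate 4 and 54 without replicate 3. The first was also 23 without 10 mg/kg replicate 2 and 24 without 1 mg/kg replicate 1, 10 mg/kg replicate 1 or 500 mg/kg replicate 1, and the second 96 without 500 mg/kg replicate 1 and 99 without 10 mg/kg replicate 1. Of the 89 genes called in the pool, 15 passed at 300 and 48 at 500 mg/kg. Lipogenic genes had larger values at 300 mg/kg. *Scd* differed by 1.93 at 300 and 1.23 at 500 mg/kg, *Srebf1* by 0.93 and 0.34, and the median of the fatty acid list was 0.31 and 0.14. *Cyp3a23-3a1* went the other way with 0.36 and 0.68, as did *Orm1* with 0.32 and 0.71 and *Serpina7* with -0.42 and -1.13. *Thrsp* was level at 1.35 and 1.33. For none of the 89 genes did the direct test of 500 against 300 mg/kg pass in limma (24 at an unadjusted p under 0.05), so these orders are not shown to differ. For *Cyp3a23-3a1* the adjusted p of that test was 0.321, for *Scd* 0.693.

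That direct test called 11 of all genes (0.0774%), 9 higher at 500 mg/kg, among them 3 PPARA targets on which the pools had shown nothing. *Eci1*, an enoyl-CoA isomerase, was at -0.14 at 300 and 0.56 at 500 mg/kg, and *Ehhadh*, the bifunctional enzyme of peroxisomes, at -0.05 and 0.57. *Acot2*, a mitochondrial thioesterase, was at -0.35 and 0.24. Their differences between the doses were 0.70, 0.61 and 0.59 (adjusted p = 0.0412, 0.0487 and 0.0303). With 1 array left out, the 3 calls held in 7, 2 and 12 of 19 fits, and the count of 11 probe sets fell to between 0 and 10, and to 6 or fewer in 17 of the 19. It was 0 without 300 mg/kg replicate 2 or 3 and without 500 mg/kg replicate 3 or 4, with 2179, 2316, 2156 and 2407 probe sets at an unadjusted p under 0.05 in limma. *Asns* was at 0.89 at 300 and -0.29 at 500 mg/kg (adjusted p of the difference 0.317).

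**Figure D5:**
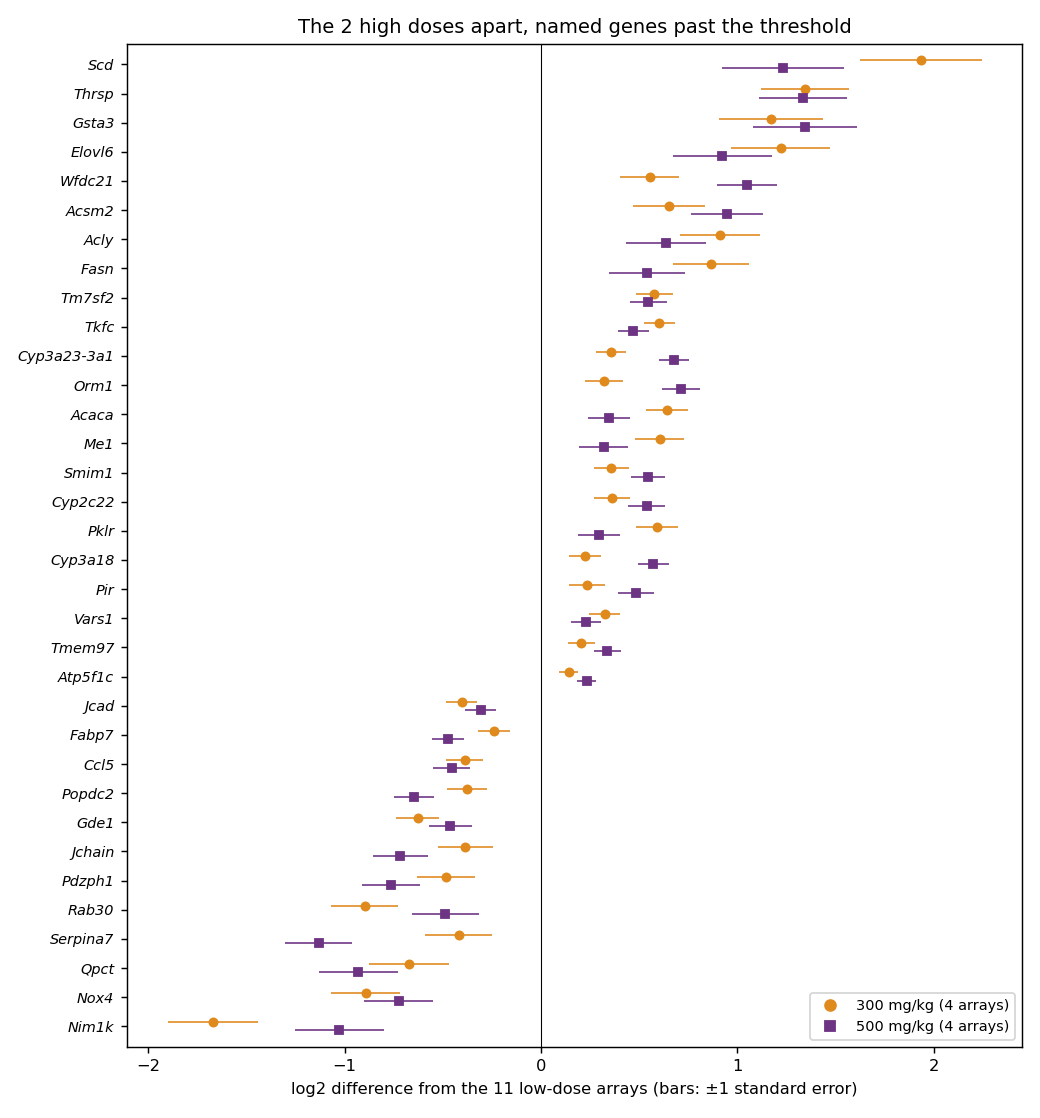
Log2 difference of 300 mg/kg (orange circles) and of 500 mg/kg (purple squares) from the same 11 low-dose arrays, with bars of 1 standard error, for the 34 named genes past the threshold. Both doses lie on the same side of 0 for each of the 34, and *Serpina7* (-0.42 and -1.13) is among those with wide gaps.

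Apart from the marker check above, kidney arrays at the same doses (6 high and 6 low) served 2 tests. These were high against low doses in kidney and whether the liver change differed between organs. In kidney 7 genes passed in the high against low contrast (0.0492%), and 0 of the 89 liver genes were among them (12 at an unadjusted p under 0.05 in limma), on fewer arrays than in liver. The high minus low difference in kidney was 0.21 (SE 0.75) for *Thrsp* and 0.16 (SE 0.23) for *Gsta3*, at mean levels of 4.99 and 6.84 in the high arrays. With that spread the *Thrsp* value does not show whether the gene responds in kidney. For neither gene did the difference between organs pass in limma (adjusted p = 0.7775 and 0.182). *Cyp3a23-3a1* and *Nim1k* were so dim in kidney, at 3.00 and 3.26, that their values there show nothing about a response. The difference between organs passed for 7 of all genes (0.0492%), 4 of them called in liver. *Me1* differed by 0.90 (SE 0.17, adjusted p = 0.0412), with 0.46 in liver and -0.44 in kidney. *Ush1c*, a scaffold protein of microvilli, differed by 0.85 (adjusted p = 0.0089), *Tnfaip8l1* by 0.82 (adjusted p = 0.0412) and *Sqstm1*, the autophagy receptor p62, by 0.45 (adjusted p = 0.0481). *Ush1c* was dim in liver, with means of 3.99 in the high and 3.46 in the low arrays, so its rise there is uncertain. With 1 of the 31 arrays left out, the count of 10 probe sets past this test ran from 2 to 35, and these calls held in 14 fits for *Me1*, 31 for *Ush1c*, 18 for *Tnfaip8l1* and 8 for *Sqstm1*. Liver and kidney of 1 animal may be among these arrays, and the labels do not pair them.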

How the data were processed

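Total RNA from liver and kidney was measured on Affymetrix rat expression arrays. The deposited values are log2 expression summarised by the authors with RMA, per the submitters' processing notes. Its version is not given in the sources used here. Quantile normalization in RMA hides a shift of most transcripts in 1 direction and compresses dim probe sets. Arrays with batch effects had been removed by the submitters, per the series' design text. The table holds 31099 probe sets. Without 57 controls, 31042 were tested, of which 20826 have 1 gene symbol, 436 several and 9780 none in the platform annotation, giving 14217 genes. Each gene is represented by the probe set that is brightest on average over the 19 arrays, and probe sets of several symbols name no gene. Without scanner files, detection above background could not be judged.

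limma 3.58.1 in R 4.3.3 (lmFit and eBayes, two-sided) compared the 8 high with the 11 low liver arrays, grouped by title, with p-values adjusted by Benjamini and Hochberg's method across all 31042 probe sets, at a threshold of 0.05. Every adjusted p is from limma. One fit of 3 groups gave each high dose apart, and 1 fit of liver and kidney gave the organ difference, without an animal block. On data simulated from these arrays, 174 of 200 changes of 0.5 and 198 of 200 changes of 1 were called, with 15 and 8 false calls. The simulated noise was normal and independent between probe sets, with no dose differences inside a pool. The real arrays are not so simple, so these counts are not their error rates.

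Named are the 8 called genes each way with the largest differences, the 6 each way with the smallest p, up to 3 called members per list with the smallest p, and 14 genes whatever their values (*Cyp3a23-3a1*, *Cyp3a9*, *Cyp1a1*, *Cyp4a1*, *Cyp7a1*, *Nqo1*, *Asns*, *Slc3a2*, *A2m*, *Gsta3*, *Serpina7*, *Fabp7*, *Fasn* and *Elovl6*). Other genes were chosen after their values were seen. Of 794 list genes 670 were measured. Members, lists and tests were chosen with earlier results of these data known, so no list is independent evidence. Alternatives were other dose groupings, a filter on dim probe sets, a second quantile normalization, median centring, another eBayes setting, a replicate block, parts of each pool, and leaving out each array. Promoters are those of RefSeq's assembly GRCr8.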

Additional observations from a re-analysis of the deposited data

Results flagged for a closer look

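Within a dose, or within the high pool, 8 of 210 groups of arrays held 1 array far from the rest by Dixon's criterion, and chance alone gives about 1 in 20. *Gsta3* was highest at 8.09 in 1 mg/kg replicate 1, and *Acly* at 12.19 in 300 mg/kg replicate 4. *Cyp2c22* was lowest at 12.49 and *Serpina7* at 9.42, both in 1 mg/kg replicate 4. *Pir* was lowest at 7.26 in 300 mg/kg replicate 3, and *Pdzph1* at 4.62 in 500 mg/kg replicate 4. *Rab30* was highest at 8.42 in 500 mg/kg replicate 2 within the high pool, and at 7.69 in 300 mg/kg replicate 2 within its dose.

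For 4 genes called in liver the change differed between liver and kidney in limma's interaction test. The liver change minus the kidney change was 0.90 for *Me1*, 0.45 for *Sqstm1*, 0.82 for *Tnfaip8l1* and 0.85 for *Ush1c*, which was dim in liver. Kidney means lay lower at the high doses for all 4, at -0.44, -0.17, -0.37 and -0.32, and 0 of the 4 passed limma's adjusted threshold in kidney alone, while all 4 had an unadjusted p under 0.05 there. These genes were picked by the interaction test, which favours opposite signs in the organs, so their kidney values are no separate evidence.

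For 3 PPARA targets the values at 500 and 300 mg/kg differed in the direct test. The difference was 0.59 for *Acot2*, 0.70 for *Eci1* and 0.61 for *Ehhadh*.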

How the results depend on the processing

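The count of 137 probe sets between high and low doses stayed between 99 and 165 with 5 dose groups, all 27 liver arrays, doses weighted equally, a second quantile normalization, median-centred arrays, the replicate number as a block (112) and 500 mg/kg alone. It was 313 among probe sets brighter than the median, 299 with a trended and robust eBayes, 30 with 300 mg/kg alone, and 84, 23 and 18 with 0.1, 1 or 10 mg/kg left out of the low pool, which leaves fewer arrays. Median centring gave 67.7% higher, against 53.3%. It also turned the small medians of the PPARA and thyroid hormone lists to 0.0064 and 0.01. The cause of the other shifts was not tested. Leaving out 1 array gave 55 to 122 for high minus low, 4 to 39 for 300 minus low (37), 34 to 156 for 500 minus low (149), 0 to 10 for 500 minus 300 (11) and 2 to 35 for the organ difference (10). The highest 2 for the organ difference were 34 without kidney 0.1 mg/kg replicate 2 and 35 without kidney 300 mg/kg replicate 2. Among brighter probe sets these 4 counts were 67, 348, 27 and 25. The replicate block gave 7 for 500 minus 300 and 3 for the organ difference, which was 4 after a second quantile normalization and 3 with 10 groups. A kidney array with no replicate number was left out of that block. Deviations of arrays with the same number correlated at r = -0.14 to 0.23, over 0.1 in 8 of 36 pairs against 4 of 108 pairs of different numbers. The main fit did not take the numbers as pairs, and whether arrays of the same number share a batch was not tested. *Acly* and *Fasn* read highest in replicate 4 at 1, 10, 300 and 500 mg/kg, with 12.19 and 10.84 at 300 mg/kg. At 0.1 mg/kg no array bears the number 4. *Scd* at 300 mg/kg was highest in replicate 1 (12.40), with 12.24 in replicate 4. Of the 34 named calls, those of *Me1*, *Tmem97*, *Atp5f1c* and *Jchain* were lost under the block. Of the 34, 10 held with 300 mg/kg alone, 19 with 500 mg/kg alone, and 22, 11 and 10 without 0.1, 1 or 10 mg/kg. Of 1342 settings for named genes, 1061 kept direction and call, 275 lost the call, 2 gained it (*Cyp4a1* and *A2m*, with 500 mg/kg alone) and 4 turned the sign of genes that had not passed, namely *Asns* (-0.29) and *Slc3a2* (-0.13) with 500 mg/kg alone, and *Cyp4a1* (-0.012) and *Nqo1* (-0.14) with 300 mg/kg alone.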

Other observations

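Several genes outside the naming rule, chosen after their values were seen, differed by more than most called genes without passing. *Ubd*, a ubiquitin-like protein induced by cytokines, was at 1.87 (SE 0.66, adjusted p = 0.245 in limma). *Egr1*, an immediate early transcription factor, was at -1.38 (SE 0.40, adjusted p = 0.134). *Lox*, which crosslinks collagen, was at -1.14 (SE 0.28, adjusted p = 0.0768), and *Zeb2*, a transcription factor, at -0.90 (SE 0.24, adjusted p = 0.112). *Prlr*, the prolactin receptor, was at 0.87 (SE 0.22, adjusted p = 0.0845), *Mme*, the peptidase neprilysin, at 0.89 (SE 0.21, adjusted p = 0.0578), and *Sult2a6*, a hydroxysteroid sulfotransferase, at 0.91 (SE 0.21, adjusted p = 0.0570).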
